A study of Oryctolagus cuniculus with 12 samples.

Results

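The genes described here mark B cells, plasma cells, and the carriage of IgA across mucosal epithelium. The list holds 9 symbols: JCHAIN, PIGR, MZB1, TNFRSF17, POU2AF1, XBP1, CD79A, CD79B, and MS4A1. A row of the authors' gene table was taken where its name equalled a symbol, which gave 8 rows of the 20566 in the table. All 8 passed the filter on low counts, as did 14835 genes in all. CD79A, the partner chain of CD79B in the B cell receptor, was not analysed here.

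RNA was sequenced in conjunctiva, the mucous membrane over the white of the eye, of female Japanese white rabbits 12 to 14 weeks old. The right eye had trabeculectomy, a glaucoma operation that lets aqueous humor drain into a filtering bleb under the conjunctiva. Mitomycin C, which stops cells from dividing, was applied during the operation, and it ended with an injection of betamethasone, a glucocorticoid, and an ointment of erythromycin and colistin. Conjunctiva of the untouched left eye gave 3 control libraries. Bleb conjunctiva gave 3 libraries at 3 hours (TL3h), 3 at 3 days (TL3d), and 3 at 14 days (TL14d) from the operation. The parts of the incision and of each drug cannot be told apart, since every operated eye had all of them and no control eye had any. The time at which each control eye was taken, and the operated eye it belongs to, are not stated in the sources used here.

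Plasma cells that lie beneath mucosal epithelium secrete IgA in polymers joined by the J chain, the product of JCHAIN. The polymeric immunoglobulin receptor, encoded by PIGR, binds these polymers at the base of an epithelial cell, carries them through it, and is cut at the far surface, so that part of the receptor leaves with the antibody as secretory IgA. In the eye this antibody reaches the tear film from the lacrimal gland and the conjunctiva. MZB1 is an endoplasmic reticulum protein that helps antibody assembly, TNFRSF17 (also called BCMA) is a survival receptor of plasma cells, and POU2AF1 is a coactivator of immunoglobulin genes. XBP1 is a transcription factor of the unfolded protein response that builds the secretory apparatus of plasma cells and also acts in other secreting or stressed cells. CD79B carries the signal of the B cell receptor, and MS4A1 encodes CD20, a surface protein of B cells that plasma cells lack.

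The total estimated count per library was 27111348 to 38591425. The TMM factor, which corrects a library for the makeup of its RNA, was 0.768 to 0.783 in TL3h and 1.03 to 1.13 in the other libraries. Levels are CPM, counts scaled to the TMM-adjusted size of each library. An observed count of 0 leaves room for up to 3 counts at 95% confidence, which is 0.0712 to 0.124 CPM. Changes are log2 fold changes (log2FC) with their standard errors, and q is the adjusted p of the edgeR quasi-likelihood test, with a threshold of 0.05. In these pieces of whole tissue, fewer cells of a type and less RNA per cell cannot be told apart. PTPRC, the leukocyte antigen CD45, had 13.1 to 28.8 CPM in control, 92.5 to 190.3 in TL3h, 119 to 144 in TL3d, and 7.73 to 52.0 in TL14d. EPCAM, an adhesion molecule of epithelium, was present in every library at 92.6 to 353 CPM.

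At 3 hours, 3 of the 8 genes passed the test (edgeR q): XBP1 and MS4A1 rose and PIGR fell. The share of all tested genes that passed in this comparison was 45.4%. At 3 days only MS4A1 passed of the 8, against 17.6% of all tested genes, and at 14 days none of the 8 passed, against 0% of all tested genes. In that last comparison 1538 genes had an unadjusted p under 0.05, MS4A1 among the 8, and DESeq2 called 367 genes but none of the 8. Without TL14d replicate 1 edgeR called 716 genes at 14 days, again none of the 8. The median log2FC of the 8 genes was 0.67 at 3 hours, 0.52 at 3 days, and -0.29 at 14 days, beside medians over all tested genes of 0.024, -0.0018, and 0.018. The groups did not overlap with control for 4 of the 8 at 3 hours, 3 at 3 days, and 3 at 14 days, beside 57.3%, 45.5%, and 11.1% of all tested genes.

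**Figure D1:**
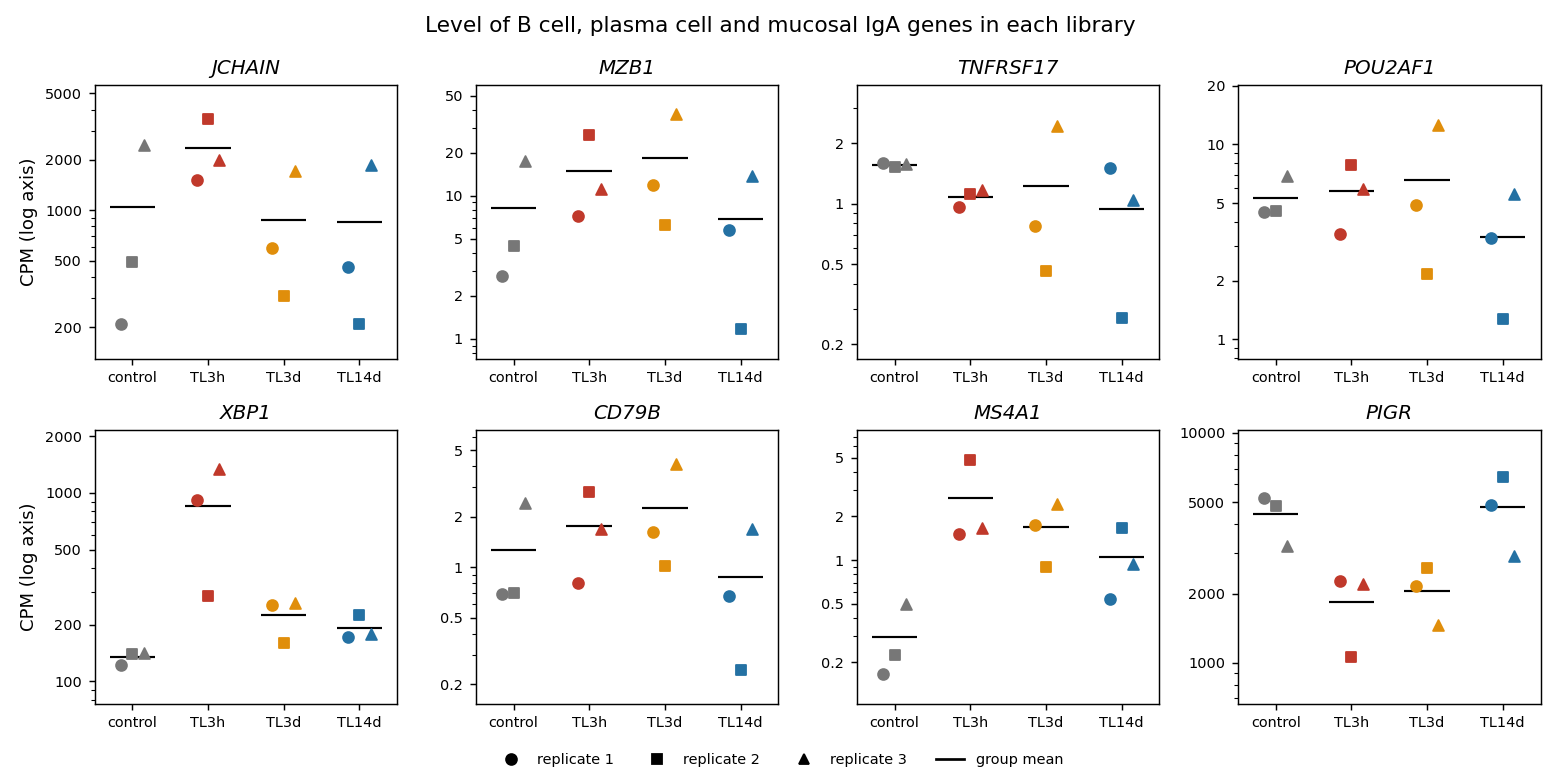
Level in CPM (log axis) of each of the 8 genes in the 12 libraries by group, with symbols for the replicate and a line at the group mean. XBP1 in TL3h (284 to 1348 CPM) lies above every other library, PIGR in TL3h and TL3d lies below every control library, and MZB1 spreads at least 3.72-fold within each group.

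PIGR (gene ID 100328593, chr16:65440981-65458867, plus strand, OryCun2.0) is the epithelial end of the IgA route. It was measured at 5233, 4808, and 3227 CPM in the control libraries. In TL3h it was at 2279, 1062, and 2198 CPM, and in TL3d at 2148, 2577, and 1461 CPM. In TL14d it was at 4869, 6432, and 2915 CPM. All 6 libraries of the first 3 days thus lay below all 3 control libraries, whereas TL14d overlapped with control. The group means were 4423 ± 1057 CPM in control, 1846 ± 680 in TL3h, 2062 ± 563 in TL3d, and 4739 ± 1762 in TL14d (SD, n = 3 each).

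At 3 hours PIGR fell by 1.26 on the log2 scale (SE 0.39, edgeR q = 0.0229). The call was lost without control replicate 1 (edgeR q = 0.0725), without control replicate 2 (q = 0.0633), and without TL3h replicate 2 (q = 0.0632), the library in which PIGR was lowest. At 3 days the log2FC was -1.10 (SE 0.39, edgeR q = 0.0723), which did not pass, although DESeq2 gave an adjusted p of 0.0223 and the edgeR exact test gave 0.0449. At 14 days the log2FC against control was 0.10 (SE 0.38, edgeR q = 0.945). From 3 to 14 days the log2FC was 1.2 (SE 0.39, edgeR q = 0.115), and the libraries of these 2 times did not overlap, as was so for 27.4% of all tested genes. Of the 8 genes, 0 passed between 3 and 14 days with edgeR, beside 2.24% of all tested genes. PIGR alone of the 8 had an unadjusted p under 0.05 there, and DESeq2 called it with an adjusted p of 0.0257.

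The epithelial marker EPCAM went the other way at 3 hours. It was measured at 162, 164, and 140 CPM in control and at 353, 256, and 322 in TL3h, a log2FC of 0.997 (SE 0.16, edgeR q = 0.000884). The ratio of PIGR to EPCAM in CPM was 23.1 to 32.2 in control, 4.15 to 6.82 in TL3h, 15.8 to 22.2 in TL3d, and 19.6 to 37.8 in TL14d. Such ratios were taken for only 4 of the 12 epithelial markers tested, EPCAM, GRHL2, ESRP1, and CLDN4. The direction at 3 hours depended on the marker, whereas at 3 days the ratio was below control for each of these 4. Ratios to the other epithelial markers were not computed and could differ in direction. The ratio of PIGR to GRHL2, an epithelial transcription factor, was 22.2 to 31.3 in control, 45.1 to 70.7 in TL3h, and 13.0 to 17.3 in TL3d. That to ESRP1, a splicing regulator of epithelium, was 28.8 to 33.8 in control, 36.1 to 46.5 in TL3h, and 17.6 to 25.1 in TL3d. That to CLDN4, a tight junction protein, was 11.4 to 13.8 in control, 0.643 to 0.895 in TL3h, and 4.06 to 6.88 in TL3d. Of the 12 epithelial markers tested, 3 rose and 2 fell at 3 hours, beside 23.2% and 22.2% of all tested genes. Their summed level was 6837 to 13149 CPM in control, 6994 to 11687 in TL3h, 7570 to 18468 in TL3d, and 11506 to 15504 in TL14d, and the part of epithelial content in the PIGR values was not tested.

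Among the genes rising in that marker list at 3 hours was CLDN4 (log2FC 2.71, SE 0.45, edgeR q = 0.000955). GRHL2 fell (log2FC -2.49, SE 0.45, edgeR q = 0.00153), and so did ESRP1 (log2FC -1.69, SE 0.35, edgeR q = 0.00314). The goblet cell list held 1 gene that fell of 5 tested at 3 hours, a share near the 22.2% of all tested genes. It was FCGBP, which encodes a mucus protein (log2FC -2.20, SE 0.63, edgeR q = 0.0162), and its summed level was 876 to 1814 CPM in control and 399.7 to 1315 in TL3h. That goblet cell count was 0 without control replicate 2 or TL3h replicate 3, 2 without TL14d replicate 3, and 3 without control replicate 3. The 7 gland epithelium markers summed to 418 to 1128 CPM in control, 99.6 to 390.04 in TL3h, 279.9 to 450.3 in TL3d, and 241 to 989.7 in TL14d. Of the 5 tested, 1 rose and 1 fell at 3 hours, and their median log2FC was 0.71, opposite in sign to the change of the sum.

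Known regulators of PIGR and genes of epithelial transport formed a further list, of which 17 were tested. At 3 hours 8 rose and 2 fell, with a median log2FC of 0.45, beside 23.2% and 22.2% of all tested genes. Among the risers were IFNGR1, which binds interferon gamma (log2FC 2.29, SE 0.23, edgeR q = 7.31e-05), and TNFRSF1A, a receptor of TNF (log2FC 1.80, SE 0.24, edgeR q = 0.000279). NFKB2, a subunit of NF-kappa B, rose as well (log2FC 2.602, SE 0.36, edgeR q = 0.000358), and so did IL4R, a receptor chain for interleukin 4 (log2FC 2.74, SE 0.42, edgeR q = 0.000589). The 2 that fell were EXOC2, a subunit of the exocyst (log2FC -1.02, SE 0.14, edgeR q = 0.000348), and IL17RC, a receptor chain for interleukin 17 (log2FC -1.29, SE 0.20, edgeR q = 0.000586). With library size as the only scaling, 7 rose and 4 fell. All 6 pan leukocyte markers also rose at 3 hours, and the part of leukocytes in this list was not tested. At 3 days 3 rose, IFNGR1, IL4R, and RELB, beside 10.6% of all tested genes, and this count was 0 without control replicate 1, control replicate 2, or TL3d replicate 1 and 1 without TL3d replicate 2. At 14 days none passed.

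JCHAIN (gene ID 103350781, chr15:79301956-79313386, plus strand) varied widely between libraries of control, TL3d, and TL14d and less in TL3h. In control it was at 207.6, 494, and 2452 CPM, and in TL3h at 1523, 3514, and 1991 CPM. In TL3d it was at 591, 305, and 1727 CPM, and in TL14d at 459, 208, and 1869 CPM. The third library of control, TL3d, and TL14d was the highest of its group, and all 3 TL3h libraries exceeded the other 2 control libraries. The log2FC was 1.16 at 3 hours (SE 1.03, edgeR q = 0.394), -0.27 at 3 days (SE 1.01, edgeR q = 0.873), and -0.31 at 14 days (SE 1.01, edgeR q = 0.932). When 1 library was left out, the log2FC at 3 hours was 0.67 (without control replicate 1) to 2.69 (without control replicate 3, edgeR q = 0.0649). Without control replicate 3 the log2FC was 1.30 at 3 days (edgeR q = 0.374) and 1.26 at 14 days (edgeR q = 0.657). Its sign was also positive without TL3d replicate 2 at 3 days (log2FC 0.14, edgeR q = 0.952) and without TL14d replicate 2 at 14 days (log2FC 0.15, edgeR q = 0.999).

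MZB1 (gene ID 100344391, chr3:21632366-21634347, minus strand) spread in a like way. It was at 2.78, 4.498, and 17.5 CPM in control and at 7.19, 26.8, and 11.2 CPM in TL3h. The TL3d libraries had 11.9, 6.25, and 37.3 CPM, and those of TL14d had 5.78, 1.17, and 13.7 CPM. Every group overlapped with control, and the highest library was 31.97 times the lowest. The log2FC was 0.87 at 3 hours (SE 0.98, edgeR q = 0.508), 1.17 at 3 days (SE 0.99, edgeR q = 0.42), and -0.26 at 14 days (SE 0.98, edgeR q = 0.944). When 1 library was left out, the log2FC of MZB1 at 3 hours was 0.12 (without TL3h replicate 2) to 1.998 (without control replicate 3), and at 3 days it was 0.14 (without TL3d replicate 3) to 2.33 (without control replicate 3).

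The SD of log2 CPM within groups, with 0.5 CPM added to each level, was 1.40 for JCHAIN and 1.28 for MZB1. It was 0.51 to 0.79 for the other 6 genes and 0.31 in the median over all tested genes. This SD is the root of the variance averaged over the 4 groups. The added 0.5 CPM narrows the spread of genes at low levels, so their SD without it would be larger. The ratio of JCHAIN to MZB1 in CPM varied less than either gene within TL3d, where it was 46.2 to 49.6. It was 74.8 to 140 in control, 131 to 212 in TL3h, and 79.4 to 178 in TL14d, so each TL3d library had a lower ratio than each of the other 9. This ratio was chosen with the values known and was not tested.

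TNFRSF17 (gene ID 100340653, chr6:5380948-5387076, plus strand) was low, at 10 to 86 estimated counts per library. It was at 1.59, 1.52, and 1.58 CPM in control and at 0.961, 1.12, and 1.17 CPM in TL3h. In TL3d it was at 0.774, 0.462, and 2.45 CPM, and in TL14d at 1.51, 0.272, and 1.04 CPM. The control libraries lay close together and all TL3h and TL14d libraries lay below them. None of these differences passed, with a log2FC of -0.53 at 3 hours (SE 0.66, edgeR q = 0.549), -0.35 at 3 days (SE 0.65, edgeR q = 0.733), and -0.74 at 14 days (SE 0.66, edgeR q = 0.722).

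POU2AF1 (gene ID 100351123, chr1:105028573-105052809, plus strand) was at 4.48, 4.57, and 6.87 CPM in control. In TL3h it was at 3.46, 7.84, and 5.89 CPM, in TL3d at 4.90, 2.16, and 12.6 CPM, and in TL14d at 3.29, 1.28, and 5.53 CPM. All groups overlapped with control. The log2FC was 0.11 at 3 hours (SE 0.65, edgeR q = 0.906), 0.30 at 3 days (SE 0.65, edgeR q = 0.766), and -0.66 at 14 days (SE 0.65, edgeR q = 0.75). With library size as the only scaling, its log2FC at 3 hours was -0.38.

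MZB1, TNFRSF17, POU2AF1, and CD79B shared their extremes. All 4 were highest in TL3d replicate 3 and lowest in TL14d replicate 2. JCHAIN and MS4A1 were highest in TL3h replicate 2, where PIGR was lowest and where XBP1 was the lowest of its group.

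**Figure D2:**
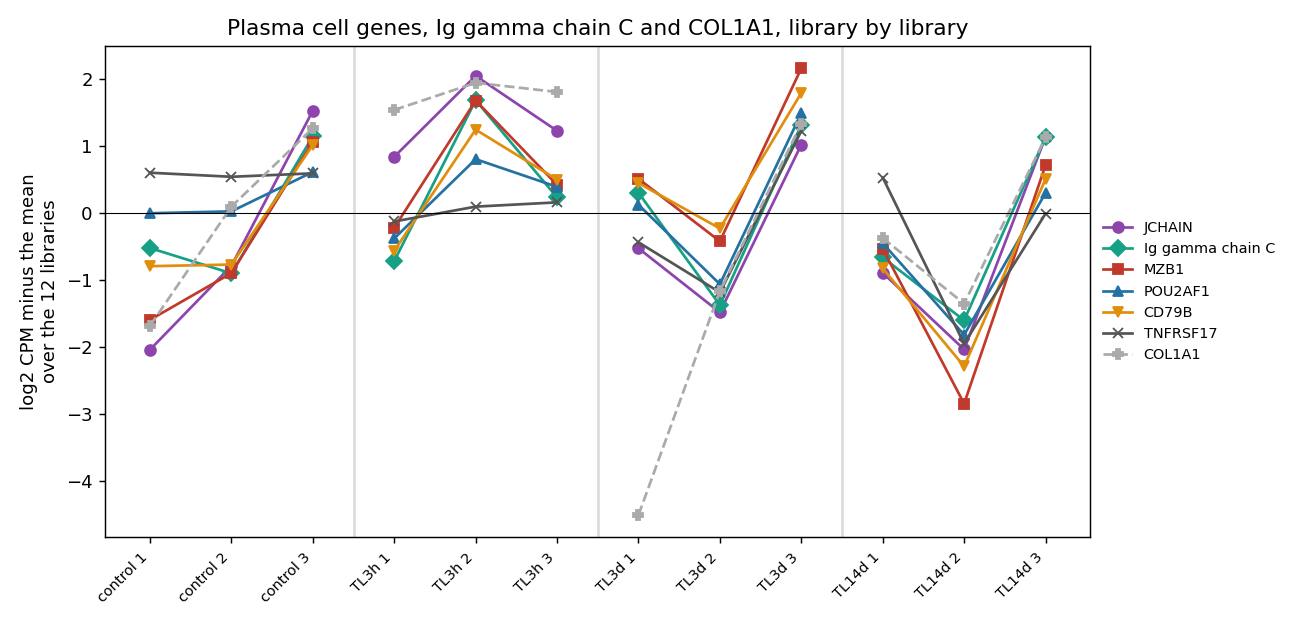
Log2 CPM of 5 of the genes, the Ig gamma chain C region row, and COL1A1 in each library, each centred on its mean over the 12 libraries; lines join libraries of 1 group only to guide the eye. The third library of control, TL3d, and TL14d and the second library of TL3h stand highest in most of these traces.

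COL1A1, a chain of collagen I that fibroblasts make, moved with these genes in part and was chosen after its values were seen. It was at 2415, 8271, and 18603 CPM in control and at 22453, 29723, and 27026 CPM in TL3h. The TL3d libraries had 342, 3452, and 19517 CPM, and those of TL14d had 5980, 3034, and 16893 CPM. COL1A1 and JCHAIN had the same order of libraries in control, TL3h, and TL14d, whereas in TL3d replicate 1 exceeded replicate 2 for JCHAIN and not for COL1A1. The summed level of the 8 fibroblast and matrix markers was 12488 to 78208 CPM in control, 105930 to 127241 in TL3h, 1576 to 66711 in TL3d, and 11618 to 58795 in TL14d. The part of stroma content in the plasma cell values was not tested.

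The table held 8 rows described as immunoglobulin chains, of which 6 were tested. These rows are uncertain, since reads can be shared between chains of a family. The Ig gamma chain C region (LOC100009097), the constant part of IgG, was by far the most abundant of them, and all of its values were fractions. It was at 884 CPM, 680.4 CPM, and 2807 CPM in control and at 774, 4069, and 1492 CPM in TL3h. In TL3d it was at 1564, 490.2, and 3152 CPM, and in TL14d at 803, 419, and 2779 CPM. Its groups overlapped at all times, with a log2FC of 0.53 at 3 hours (SE 0.92), 0.25 at 3 days (SE 0.92), and -0.13 at 14 days (SE 0.91). None of the 6 rows passed at any time with edgeR or DESeq2, beside 45.4%, 17.6%, and 0% of all tested genes with edgeR at the 3 times in order. At 3 hours limma called 1 of the 6, and edgeR called 2 without control replicate 3. No row described as an IgA heavy chain was analysed here.

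Plasma cell regulators and surface proteins outside the 9 genes made a list of 11 tested. At 3 hours 2 rose and none fell, beside 45.4% of all tested genes that passed, and at 3 days 1 rose, beside 17.6% that passed. Both counts are a smaller share of the list than of all genes. PRDM1, the repressor that commits B cells to the plasma cell state and that other cells also make, was at 18.1, 21.9, and 24.2 CPM in control, at 137, 104, and 112 in TL3h, at 64.1, 65.8, and 49.9 in TL3d, and at 19.97, 51.4, and 22.2 in TL14d. It rose at 3 hours (log2FC 2.46, SE 0.34, edgeR q = 0.000326) and at 3 days (log2FC 1.49, SE 0.33, edgeR q = 0.0181). ELL2, an elongation factor that favors secreted antibody, rose at 3 hours (log2FC 2.02, SE 0.25, edgeR q = 0.000215). The call of PRDM1 at 3 days was lost without control replicate 1, control replicate 2, TL3d replicate 1, or TL3d replicate 2.

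Other defining genes of plasma cells did not pass. IRF4, a transcription factor of plasma cells, had a log2FC of 0.63 at 3 hours (SE 0.52, edgeR q = 0.362) and 0.14 at 3 days (SE 0.52, edgeR q = 0.873). SDC1, a proteoglycan of plasma cells and of epithelium, had -0.29 (SE 0.33, edgeR q = 0.508) and 0.36 (SE 0.33, edgeR q = 0.46) at these times. CD38, an ectoenzyme of plasma cells and other leukocytes, ranged from 0.168 to 24.0 CPM over the 12 libraries and had a log2FC of 1.86 at 3 hours (SE 1.23, edgeR q = 0.248) and 2.47 at 3 days (SE 1.25, edgeR q = 0.181). The summed level of the list was 1238 to 1766 CPM in control, 1663 to 2117 in TL3h, 1429 to 2378 in TL3d, and 1329 to 1693 in TL14d.

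XBP1 (gene ID 100339940, minus strand) lies on sequence with no chromosome, at 139630206 to 139635292 of a joined sequence of such pieces. It was at 122.0, 139, and 142 CPM in control and at 918, 284, and 1348 CPM in TL3h. The TL3d libraries had 254, 159, and 262 CPM, and those of TL14d had 172, 226, and 179 CPM. Every operated library exceeded every control library, and every TL3h library exceeded every TL3d library. The group means were 134 ± 10.8 CPM in control, 849.6 ± 535 in TL3h, 225 ± 56.9 in TL3d, and 192 ± 29.7 in TL14d (SD, n = 3 each).

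XBP1 rose at 3 hours with a log2FC of 2.66 (SE 0.46, edgeR q = 0.00124), a 6.32-fold difference. Over the 22 alternatives of processing its log2FC was 2.11 to 3.03, and it passed in each. It fell from 3 hours to 3 days (log2FC -1.92, SE 0.45, edgeR q = 0.00803), as the only 1 of the 8 genes that passed between these times, beside 37.3% of all tested genes and 19% that fell. Of the 8 genes XBP1 was also the only 1 whose TL3h and TL3d libraries did not overlap, beside 54.7% of all tested genes. The difference from control was 0.74 at 3 days (SE 0.44, edgeR q = 0.244) and 0.52 at 14 days (SE 0.44, edgeR q = 0.705) on the log2 scale, and neither passed.

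The list of the secretory apparatus and the unfolded protein response held 24 tested genes. At 3 hours 16 rose and 1 fell, with a median log2FC of 0.91, beside 23.2% and 22.2% of all tested genes. With library size as the only scaling 9 rose and 2 fell, and of the calls over all genes 25% were higher, against 51% with TMM. At 3 days 8 rose and none fell, with a median of 0.66, beside 10.6% and 7% of all tested genes, and at 14 days none passed. The count at 3 hours was 11 without control replicate 1, control replicate 2, or TL3h replicate 3. The count at 3 days was 1 without control replicate 2, and 2 without control replicate 1, TL3d replicate 1, or TL3d replicate 2.

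HSPA5, the chaperone BiP of the endoplasmic reticulum, was at 293, 276, and 385 CPM in control, at 1682, 2059, and 1902 in TL3h, at 657, 554, and 624 in TL3d, and at 256, 656, and 505 in TL14d. The TL3h libraries stood far above all others and close to one another, unlike those of XBP1. The log2FC of HSPA5 was 2.57 at 3 hours (SE 0.31, edgeR q = 0.000178) and 0.94 at 3 days (SE 0.29, edgeR q = 0.0512), which did not pass. MANF, a secreted protein made under stress of this compartment, rose at 3 hours (log2FC 2.21, SE 0.25, edgeR q = 0.000141) and at 3 days (log2FC 1.14, SE 0.25, edgeR q = 0.0178). DNAJB9, a cochaperone that is a target of XBP1, rose at 3 hours (log2FC 1.96, SE 0.35, edgeR q = 0.00136) and had 0.42 at 3 days (SE 0.34, edgeR q = 0.389). ATF4, the factor of a further branch of the response, rose at 3 hours (log2FC 1.63, SE 0.24, edgeR q = 0.000498). CREB3L2, a related factor, fell at 3 hours (log2FC -0.80, SE 0.25, edgeR q = 0.023).

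At 3 days the smallest q of the list was that of SDF2L1, which forms a complex with HSPA5 (log2FC 1.05, SE 0.18, edgeR q = 0.011). At 3 hours SDF2L1 had -0.09 (SE 0.18, edgeR q = 0.721). EDEM1, which directs misfolded glycoproteins to breakdown, had 1.37 at 3 days (SE 0.24, edgeR q = 0.0114) and 0.69 at 3 hours (SE 0.24, edgeR q = 0.0354).

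**Figure D3:**
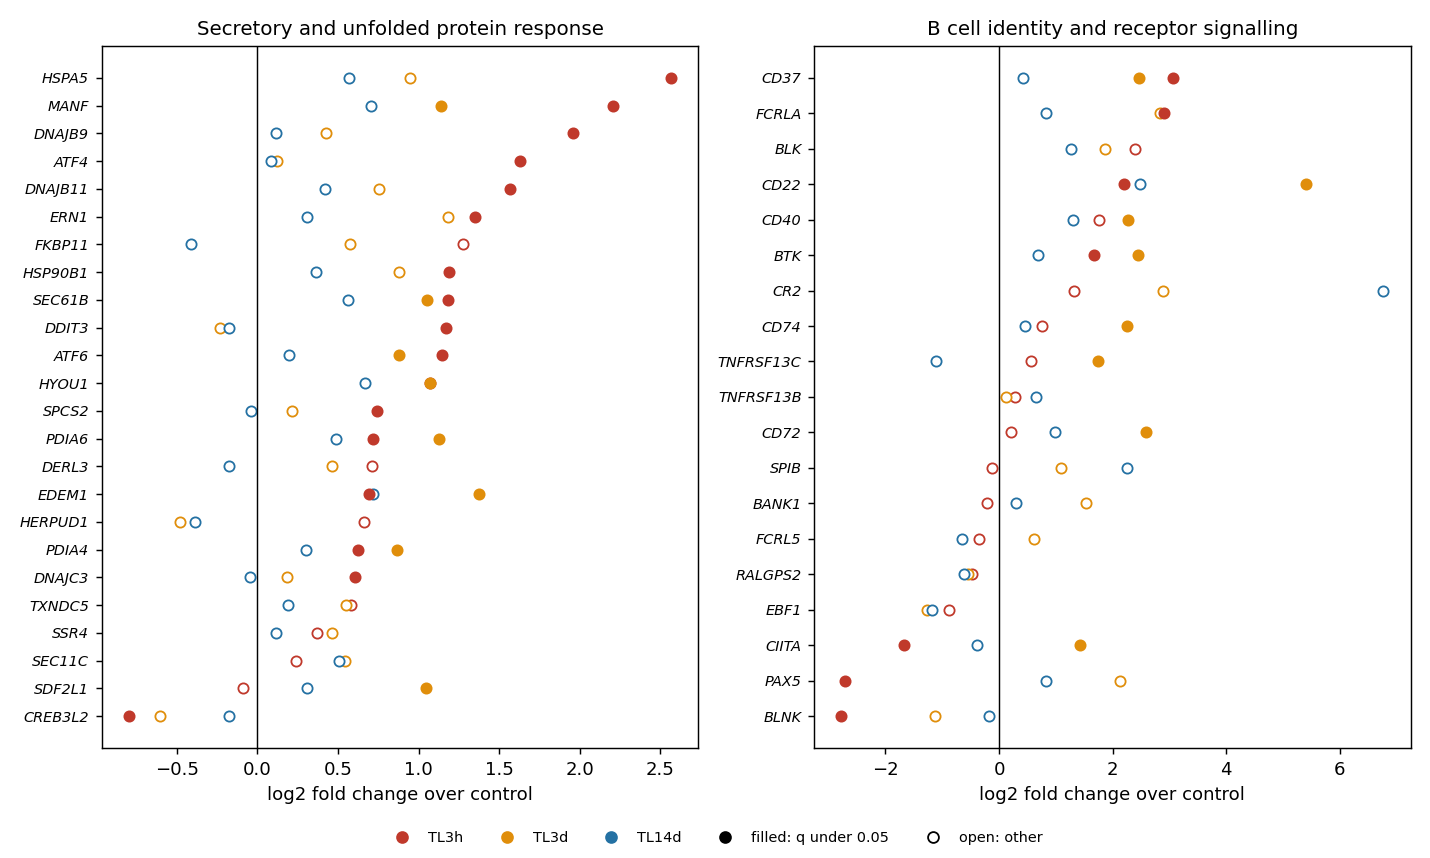
Log2 fold change over control of tested genes of the secretory and unfolded protein response list (left) and of the B cell identity and receptor signalling list (right, 1 gene not shown) at each of the 3 times after surgery, filled where q is under 0.05. On the left 16 filled points lie above 0 at 3 hours and 8 at 3 days, and on the right 8 lie above 0 at 3 days; at 14 days no point is filled.

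MS4A1 (gene ID 100357719, chr1:193042385-193056899, plus strand) was low, with 7, 9, and 20 counts in control. In CPM it was at 0.166, 0.225, and 0.502 in control and at 1.499, 4.85, and 1.65 in TL3h. In TL3d it was at 1.75, 0.893, and 2.42 CPM, and in TL14d at 0.538, 1.66, and 0.944 CPM. All 9 operated libraries exceeded all 3 control libraries. MS4A1 rose at 3 hours (log2FC 3.15, SE 0.70, edgeR q = 0.00453) and at 3 days (log2FC 2.49, SE 0.68, edgeR q = 0.0349), and had 1.81 at 14 days (SE 0.67, edgeR q = 0.422), which did not pass.

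The call of MS4A1 at 3 hours held in each of the 22 alternatives. Its log2FC was 1.39 to 3.69 over them and 2.34 to 3.69 when 1 library was left out. Its call at 3 days was lost with limma (adjusted p = 0.0669) and without control replicate 1 (edgeR q = 0.113), control replicate 2 (q = 0.113), TL3d replicate 1 (q = 0.0884), TL3d replicate 2 (q = 0.0633), or TL3d replicate 3 (q = 0.0732). At this depth the control level rests on 36 counts in all, against 201 in TL3h, 184 in TL3d, and 106 in TL14d.

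CD79B (gene ID 100350284, chr19:48735652-48738768, minus strand) was at 0.688, 0.700 and 2.41 CPM in control. In TL3h it was at 0.807, 2.82, and 1.68 CPM, in TL3d at 1.62, 1.02, and 4.12 CPM, and in TL14d at 0.672, 0.244, and 1.69 CPM. Every group overlapped with control, unlike MS4A1. The log2FC was 0.48 at 3 hours (SE 0.82, edgeR q = 0.667), 0.83 at 3 days (SE 0.81, edgeR q = 0.489), and -0.54 at 14 days (SE 0.82, edgeR q = 0.847).

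**Figure D4:**
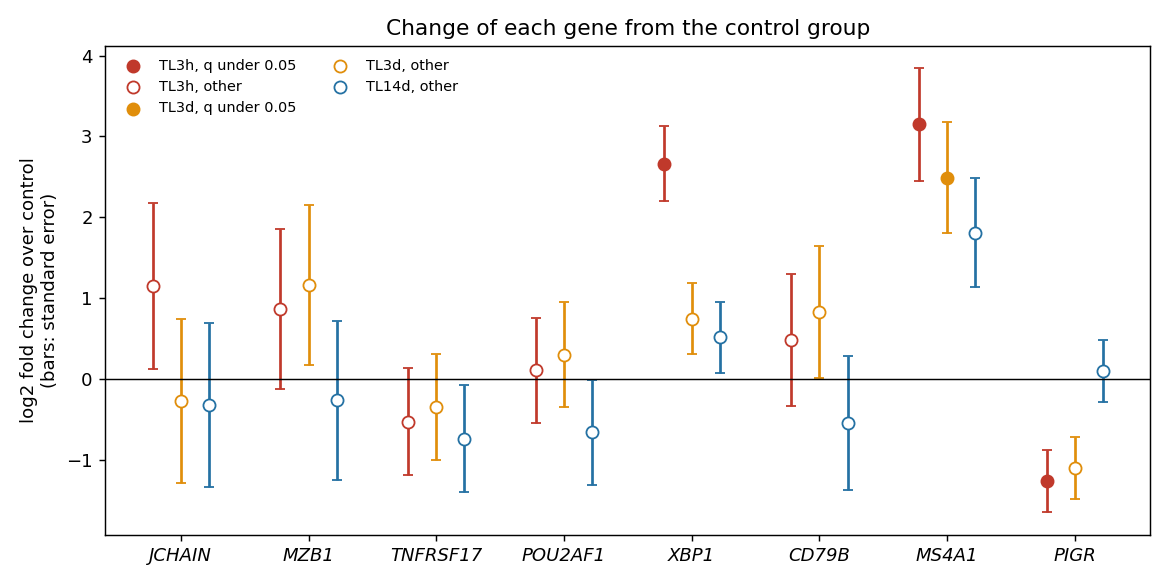
Log2 fold change over control with its standard error for each of the 8 genes at each of the 3 times after surgery, filled where q is under 0.05. Filled points are XBP1 (2.66), MS4A1 (3.15), and PIGR (-1.26) at 3 hours and MS4A1 (2.49) at 3 days.

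Further genes of B cell identity and receptor signalling made a list of 20 tested. At 3 hours 4 rose and 3 fell, with a median log2FC of 0.41, which is a smaller share than the 45.4% of all tested genes that passed. At 3 days 8 rose and none fell, with a median of 1.82, beside 10.6% and 7% of all tested genes. At 14 days none passed. Several of its members, such as CD37, BTK, CD74, and CIITA, are also made by other leukocytes, and all 6 pan leukocyte markers rose at 3 hours and at 3 days. The summed level of those 6 was 213 to 376 CPM in control, 911 to 1757 in TL3h, 1391 to 1648 in TL3d, and 216 to 961 in TL14d. The 9 myeloid and neutrophil markers summed to 65.3 to 634 CPM in control, 1341 to 2930.01 in TL3h, and 1539 to 1929 in TL3d. The 13 T cell markers summed to 28.8 to 61.0 CPM in control, 47.5 to 87.4 in TL3h, and 44.7 to 69.2 in TL3d. The part of other leukocytes in the B cell list was not tested.

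The 8 risers at 3 days were led by CD22, an inhibitory coreceptor of B cells. CD22 was at 0.237, 0.600, and 0.777 CPM in control and at 2.31, 4.19, and 0.988 in TL3h. The TL3d libraries had 23.2, 24.7, and 20.7 CPM, and those of TL14d had 0.370, 4.97, and 3.64 CPM. Every TL3d library exceeded every other library, with a log2FC of 5.40 over control (SE 0.92, edgeR q = 0.011). CD74, the invariant chain of antigen presentation, rose at 3 days (log2FC 2.25, SE 0.43, edgeR q = 0.0137), as did CD37, a tetraspanin of leukocytes (log2FC 2.46, SE 0.48, edgeR q = 0.0147), and CD72, a coreceptor of B cells (log2FC 2.59, SE 0.58, edgeR q = 0.019).

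At 3 hours CD37 rose (log2FC 3.07, SE 0.50, edgeR q = 0.000824), and the 3 that fell were BLNK, CIITA, and PAX5. BLNK, an adaptor of B cell receptor signalling, had a log2FC of -2.78 (SE 0.49, edgeR q = 0.00131). CIITA, which switches on class II genes, had -1.66 at 3 hours (SE 0.42, edgeR q = 0.00913) and 1.43 at 3 days (SE 0.41, edgeR q = 0.0415). PAX5, a transcription factor of B cells, was at 0.593, 1.27, and 0.226 CPM in control and held 2, 3, and 3 counts in TL3h (edgeR q = 0.0443). The summed 85 counts of control and 8 of TL3h give a ratio of control to TL3h of 6.74 per unit of library size, with an exact 95% interval of 3.27 to 16.1 that covers counting error only. In TL3d it was at 6.27, 1.94, and 0.995 CPM, and the difference from control did not pass (edgeR q = 0.101).

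These counts depended on single libraries. At 3 hours the count of 7 in the B cell identity and receptor signalling list was 3 without control replicate 1, control replicate 2, TL3h replicate 1, or TL3h replicate 2, was 4 without TL3d replicate 2, and was 11 without TL14d replicate 1. At 3 days the count of 8 was 1 without control replicate 2 or TL3d replicate 2, 2 without control replicate 1, 3 without TL3d replicate 1, 4 without TL3d replicate 3, and 5 without TL3h replicate 1, TL3h replicate 3, or TL14d replicate 3. The pan leukocyte count of 6 at 3 days was 0 without control replicate 1 and 1 without control replicate 2, TL3d replicate 1, or TL3d replicate 2.

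Chemokines, homing receptors, and survival factors of mucosal plasma cells made a list of 27, of which 18 were tested. At 3 hours 7 rose and 1 fell, beside 23.2% and 22.2% of all tested genes. In either direction this was a share near the 45.4% of all tested genes that passed. At 3 days 5 rose and none fell, beside 10.6% and 7% of all tested genes. TNFSF13B (BAFF), a survival factor of B cells, had a log2FC of -0.26 at 3 hours (SE 0.61, edgeR q = 0.758) and rose at 3 days (log2FC 2.10, SE 0.62, edgeR q = 0.0446). TNFSF13 (APRIL), the ligand of the receptor that TNFRSF17 encodes, had -1.10 at 3 hours (SE 0.42, edgeR q = 0.057) and -1.14 at 3 days (SE 0.42, edgeR q = 0.0846), neither past the threshold. CCL28, a chemokine that draws IgA plasma cells, had -1.92 at 3 hours (SE 0.81, edgeR q = 0.0769) and 0.33 at 3 days (SE 0.74, edgeR q = 0.78). Its receptor gene CCR10 held 21 counts over all 12 libraries and was not tested.

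The smallest q in that list at 3 hours was that of IL6R, a receptor of interleukin 6 (log2FC 3.40, SE 0.32, edgeR q = 5.7e-05), followed by TSLP, an epithelial cytokine (log2FC 3.596, SE 0.51, edgeR q = 0.00038), and LTB, a lymphotoxin chain (log2FC 2.62, SE 0.41, edgeR q = 0.000663). CCL20, which draws B cells and dendritic cells to mucosa, fell (log2FC -2.57, SE 0.82, edgeR q = 0.0275). This rests on low counts, 9, 31, and 18 in control and 3, 2, and 1 in TL3h. At 3 days IL6R (log2FC 1.34, SE 0.30, edgeR q = 0.0188) and IL21R, a receptor on activated B cells (log2FC 2.75, SE 0.73, edgeR q = 0.0309), were among the risers. The count of 8 at 3 hours was 5 without control replicate 2 or TL3h replicate 2. The count of 5 at 3 days was 0 without control replicate 1, control replicate 2, TL3d replicate 1, or TL3d replicate 2, was 2 without TL3h replicate 1, TL3h replicate 2, TL3d replicate 3, or TL14d replicate 3, was 3 without TL3h replicate 3, and was 8 without TL14d replicate 1.

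Germinal centers, where B cells mutate and select their receptors, are marked by a list of which 7 genes were tested. Of these, 3 passed at 3 hours, a share near the 45.4% of all tested genes, and 2 at 3 days, beside 17.6%. At 3 hours 1 of the 7 rose, S1PR2, which holds cells in the germinal center (log2FC 1.88, SE 0.45, edgeR q = 0.00663), and 2 fell, among them UNG, a DNA repair enzyme of dividing cells that also acts in class switching (log2FC -1.61, SE 0.27, edgeR q = 0.00103). At 3 days 2 rose, GCSAM, a signalling adaptor of germinal center B cells (log2FC 2.95, SE 0.74, edgeR q = 0.0271), and S1PR2 (log2FC 1.44, SE 0.44, edgeR q = 0.0488). That count was 0 when any control or TL3d library was left out, was 1 without TL3h replicate 2, TL3h replicate 3, TL14d replicate 2, or TL14d replicate 3, and was 4 without TL14d replicate 1.

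Per length, on the FPKM scale of the deposited table, PIGR and JCHAIN had the highest group means of the 8 genes in control, TL3d, and TL14d, and JCHAIN and XBP1 had the highest in TL3h. Mean FPKM of PIGR was 1166 in control, 350.4 in TL3h, 547 in TL3d, and 1258 in TL14d. Mean FPKM of JCHAIN was 728, 1196, 619, and 603 in the same order. Mean FPKM of XBP1 was 90.6, 417, 153, and 131, and it exceeded PIGR in TL3h replicates 1 and 3. Among 20566 genes PIGR ranked 21 at its best and 347 at its worst, and JCHAIN 22 and 389, whereas MS4A1 ranked from 11559 to 15090.

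In FPKM, JCHAIN exceeded PIGR in 6 of the 12 libraries. The ratio of JCHAIN to PIGR was 0.108 to 2.06 in control, 1.82 to 8.99 in TL3h, 0.322 to 3.21 in TL3d, and 0.0879 to 1.74 in TL14d. JCHAIN was above PIGR in all 3 TL3h libraries and in 1 library of each other group. The remaining genes were far lower over all libraries, with MZB1 at 1.56 to 48.0 FPKM, POU2AF1 at 0.891 to 8.44, CD79B at 0.224 to 3.63, TNFRSF17 at 0.213 to 1.84, and MS4A1 at 0.0384 to 0.776.

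PIGR has 2 transcript models in the deposited table, of 3521 and 2960 bases. The longer one took 71.5 to 73.4% of the gene's transcript counts in control, 70.5 to 71.3% in TL3h, 68.7 to 68.9% in TL3d, and 68.3 to 71.2% in TL14d. Every operated library lay below every control library in this share, and the difference was not tested. The authors' estimate sets these shares where reads fit both models.

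Likeness of pattern was measured as the root mean square difference of log2 CPM, each gene centred on its mean over the 12 libraries, over the 13252 genes whose mean reached 1 CPM. The pattern nearest to CD79B was that of DERL3 (0.29), which acts in breakdown of proteins from the endoplasmic reticulum and is made by plasma cells, followed by POU2AF1 (0.33) and RHOJ (0.36). POU2AF1 was nearest to CD79B (0.33), DERL3 (0.34), and FHL5 (0.35). MZB1 was nearest to ALDH1L2 (0.54), PLTP (0.54), and CD79B (0.54). CD79B and POU2AF1 were thus among each other's nearest 3, and a gene below that mean could not be among the neighbours.

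JCHAIN was nearest to PTGFR (0.40), LOC103347775 (0.42), and NHSL2 (0.45). PTGFR and NHSL2 are not antibody genes by their descriptions, and LOC103347775 has no description. PIGR was nearest to GLYAT (0.28), UNC5CL (0.29), and ISPD (0.29). XBP1 was nearest to STAMBPL1 (0.40), LOC100354896 (0.40), and FABP5 (0.42). MS4A1 was nearest to ANKRD33B (0.24), FCRL3 (0.31), a receptor of the Fc receptor like family found on B cells, and PPP1R18 (0.36). TNFRSF17 was nearest to BIN1 (0.28), SORBS3 (0.30), and LOC100349198 (0.31). The medians over all genes compared were 0.71 for TNFRSF17 to 1.45 for JCHAIN.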

How the data were processed

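Reads of 150 bp pairs from a stranded mRNA kit were mapped by the authors to OryCun2.0 with STAR 2.6.0c, per the processing notes, and summarized in GeneData Profiler Genome. The authors deposited estimated counts per gene and transcript, not divided by library size, of which 23.4% are fractions in the gene table. How reads with several placements were shared is not given in the sources used here. The authors also deposited FPKM values, divided by length and depth, used here only to compare levels between genes. The MicroShunt libraries were not analysed here. No genome or sequence table of this build was used.

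Samples were grouped by their labels and whole series columns were matched by the label's description. Estimated counts were rounded. The edgeR 4.0.16 filter filterByExpr (minimum count 10, minimum total 15) kept 14835 of 20566 genes in R 4.3.3. All 12 libraries entered 1 TMM-normalized quasi-likelihood fit without covariates, as the study names edgeR and a q of 0.05, with Benjamini-Hochberg adjustment of p over every gene tested. SE is the size of the log2FC over the root of the F statistic. An exact permutation test of 3 against 3 cannot go below 0.1, so none is given. The labels do not say that libraries of a group come from separate rabbits. The paper gives its values at each time after surgery as averages of 3 eyes and describes surgery on the right eye. Its legend does not say this of the control libraries. The p-values measure the spread between libraries. Intervals and floors cover counting error only, since reads carried no molecular identifiers.

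The genes and lists were chosen with earlier results of these data known, and the lists are no independent evidence of a direction. From each companion list, up to 4 genes with the smallest q in each direction, and a set of standard markers, could be named. Alternatives were DESeq2 1.42.0 and limma 3.58.1 (pseudocount 1 CPM), the edgeR exact test, other scalings and filters, a replicate block, a fold of at least 2, only the 6 libraries compared, and leaving out each library. The fit was also run on simulated data, with an outcome that is not reported here. Values of some genes of the companion lists are not reported here.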

Additional observations from a re-analysis of the deposited data

Results flagged for a closer look

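XBP1 differed between operated groups: its effect against the shared control was larger at 3 hours than at 3 days by a test of the difference itself, with a log2FC of -1.92 for TL3d against TL3h (SE 0.45, edgeR q = 0.00803). All 3 TL3h libraries (284 to 1348 CPM) lay above all 3 TL3d libraries (159 to 262 CPM). The spread within TL3h was 4.75-fold, with replicate 2 the lowest, and the log2FC was -2.30 to -1.38 when any 1 library was left out.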

How the results depend on the processing

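The 40 log2 fold changes (8 genes in 5 comparisons) were recomputed under 22 alternatives. Of these 880 values, 832 kept direction and side of the threshold, 9 lost their call, 3 gained one, and 36 changed sign, all 36 in differences that did not pass. At 3 days the number of the 8 genes called was 2 with the DESeq2 test and 2 with the edgeR exact test (MS4A1 and PIGR), 0 with limma, and 0 to 1 when 1 library was left out. Between 3 and 14 days it was 1 with the DESeq2 test. XBP1 passed at 3 hours, and between 3 hours and 3 days, in all 22.

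Sign changes outside the runs that leave out 1 library were these. With library size only, POU2AF1 at 3 hours had -0.38. With limma, JCHAIN at 3 days had 0.10, and TNFRSF17 and POU2AF1 between 3 hours and 3 days had -0.0044 and -0.034. With the replicate block, JCHAIN at 3 days had 0.040, and between 3 hours and 3 days MZB1, TNFRSF17, and POU2AF1 had -0.26, -0.068, and -0.13. The cause was not tested.

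Leaving out 1 library gave these ranges of log2FC where a sign changed. At 3 hours they were -0.23 to 0.32 for POU2AF1 and -0.064 to 1.29 for CD79B. At 3 days they were -1.23 to 1.30 for JCHAIN, -1.33 to 0.039 for TNFRSF17, and -0.59 to 0.72 for POU2AF1. At 14 days they were -1.66 to 1.26 for JCHAIN, -0.18 to 0.35 for PIGR, -1.25 to 0.91 for MZB1, and -1.47 to 0.31 for CD79B. Between 3 hours and 3 days they were -0.080 to 0.38 for PIGR, -0.72 to 1.04 for MZB1, -0.80 to 0.57 for TNFRSF17, -0.69 to 0.61 for POU2AF1, -0.42 to 0.89 for CD79B, and -1.004 to 0.14 for MS4A1. Between 3 and 14 days they were -1.39 to 0.91 for JCHAIN and -0.91 to 0.59 for TNFRSF17.

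The shared replicate numbers were not taken as pairs, since nothing in the labels ties them to a rabbit or day and not every correlation was over 0.1. Over 18 pairs with the same number in different groups, deviations from the group means correlated at -0.16 to 0.53, with 8 pairs over 0.1, and 9 of 12 libraries correlated best with one of their own number, which is a hint from the data and not from the design. The block changed no count of calls among the 8 genes, and over all genes it gave 6946 calls at 3 hours (6733 without it) and 2719 at 3 days (2608 without it). With library size only, the median log2FC of all genes at 3 hours was -0.47, and 25% of the calls were higher, against 51% with TMM. Between 3 hours and 3 days that median was 0.43, and 80.5% of the calls were higher, against 49.2%. Over all genes the number called at 3 days was 491 without control replicate 1, 370 without control replicate 2, 449 without TL3d replicate 1, and 359 without TL3d replicate 2, and it was 4471 with DESeq2. With 3 libraries a group and the spread of JCHAIN and MZB1, a standard error near 1 on the log2 scale limits what could be detected for them.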

Other observations

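CR2, complement receptor 2 of B cells and follicular dendritic cells, was chosen after its values were seen. In TL14d it was at 0.571, 12.005, and 113 CPM, against a mean of 0.381 CPM in control. Its log2FC at 14 days was 6.77 (SE 1.81, edgeR q = 0.346), which did not pass, and the libraries of this group differed from one another more than those of any of the 8 genes. MS4A1 in the same libraries was at 0.538, 1.66, and 0.944 CPM.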
